A study of Homo sapiens with 9 samples.

Results

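The 39 genes described here encode factors that write, read or remove the marks of silenced chromatin: the heterochromatin, Polycomb and DNA methylation factors. They were taken by gene symbol from a fixed list, and all 39 were found among the 23368 symbols of the count table and had enough reads to be tested. RNA was sequenced from A673, an established Ewing sarcoma cell line, 48 h after reverse transfection with 13 nM siRNA, in a series that screened for viability targets of cells carrying the EWS-FLI1 fusion. Of the 9 libraries, 3 received siLRWD1-5, 3 received siLRWD1-6 (each an siRNA against LRWD1) and 3 received a scrambled siRNA. All were grown in medium with Tet-approved serum, Zeocin and blasticidin, and the 3 libraries of a group are independent experiments with this one line, each numbered as a series in the labels.

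Heterochromatin is built when H3K9 methyltransferases mark histone H3 and HP1 proteins bind that mark, and H4K20 methylation and DNA methylation often lie on the same regions. Polycomb repressive complex 2 methylates H3K27, and Polycomb repressive complex 1 ubiquitinates histone H2A at many of the same genes. DNMT1 copies DNA methylation at the replication fork with UHRF1, so several of these genes are most active in dividing cells. LRWD1, also called ORCA, binds the origin recognition complex and is known to associate with heterochromatin, with repressive histone methylation and with H3K9 methyltransferases.

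Library totals ran from 11971179 to 15674452 counted reads. LRWD1 had 10.6, 11.3 and 10.4 CPM (read counts scaled to a common library total with TMM factors) with siLRWD1-5, 6.55, 8.11 and 8.55 CPM with siLRWD1-6, against 49.1, 54.6 and 49.3 CPM with scrambled siRNA, so its level was lower in every LRWD1 siRNA library. Scrambled replicate 2 stood apart: its chi-square per gene against the other scrambled libraries was 29.6 and 25.1, against 3.05 to 5.69 for every other pair within a group. Relative to the mean of scrambled replicates 1 and 3, it was lower for 29 of 29 DNA replication genes (median log2 difference -0.67) and 22 of 22 mitosis genes (median -0.79). Many of the results that changed when it was left out are given without it as well. Of 8 Ewing sarcoma markers 7 had enough reads to be tested, with NKX2-2, NR0B1, STEAP1 and FLI1 averaging 26.7, 39.5, 50.8 and 67.9 CPM. The eighth, CD99, was listed at 0 in 8 libraries and had 50 counts in siLRWD1-5 replicate 2. No level of CD99 was read from those counts. Of the 7 tested markers, 6 were lower with siLRWD1-5 (20.3% of all genes were) and 1, PRKCB, with siLRWD1-6 (7.78% of all genes). All 7 were higher in scrambled replicate 2 than in scrambled replicates 1 and 3 on average, with a median log2 difference of 0.23. Without that library 6 were lower with siLRWD1-5, and 2 were higher and 1 lower with siLRWD1-6. The 13 markers of blood, epithelial, endothelial, muscle and liver cells summed to between 1.24 and 3.00 CPM per library, with the defining T cell gene CD3E and muscle gene MYOD1 at 0 throughout.

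siLRWD1-5 changed 13 of the 39 genes, and siLRWD1-6 changed 2. With siLRWD1-5, 5 genes were higher (18.5% of all 13648 genes tested were) and 8 were lower (20.3% of all genes), at a Benjamini-Hochberg adjusted p under 0.05 in edgeR's quasi-likelihood fit. That is 33.3% of the 39, against 38.8% of all genes in either direction. With siLRWD1-6, 1 gene was higher (8.81% of all genes) and 1 lower (7.78%), or 5.13% of the 39 against 16.6% of all genes. The median log2 fold change of the 39 was 0.02 with siLRWD1-5, beside -0.01 over all genes, and -0.00 with siLRWD1-6, beside -0.02 over all genes. Both medians lay close to those of all genes, and the shares called were not above those of all genes. With siLRWD1-5, 8 of 29 DNA replication genes (27.6%, such as CDC6, at -0.99) were also lower, against 20.3% of all genes. Of 22 mitosis genes 4 were lower with it (18.2%), namely CDC20, at -2.04, TOP2A, AURKA and KIF11. With siLRWD1-6, 1 DNA replication gene was lower (3.45%, RRM2, at -0.62), against 7.78% of all genes. In the direct comparison of siLRWD1-6 with siLRWD1-5, 8 genes were higher (22.4% of all genes) and 4 lower (20.9%), 30.8% of the 39 against 43.4% of all genes. No gene was called against scrambled siRNA with both siRNAs. In all, 16 genes were called in at least 1 comparison and 23 in none. Both comparisons against scrambled share the same control libraries.

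**Figure D1:**
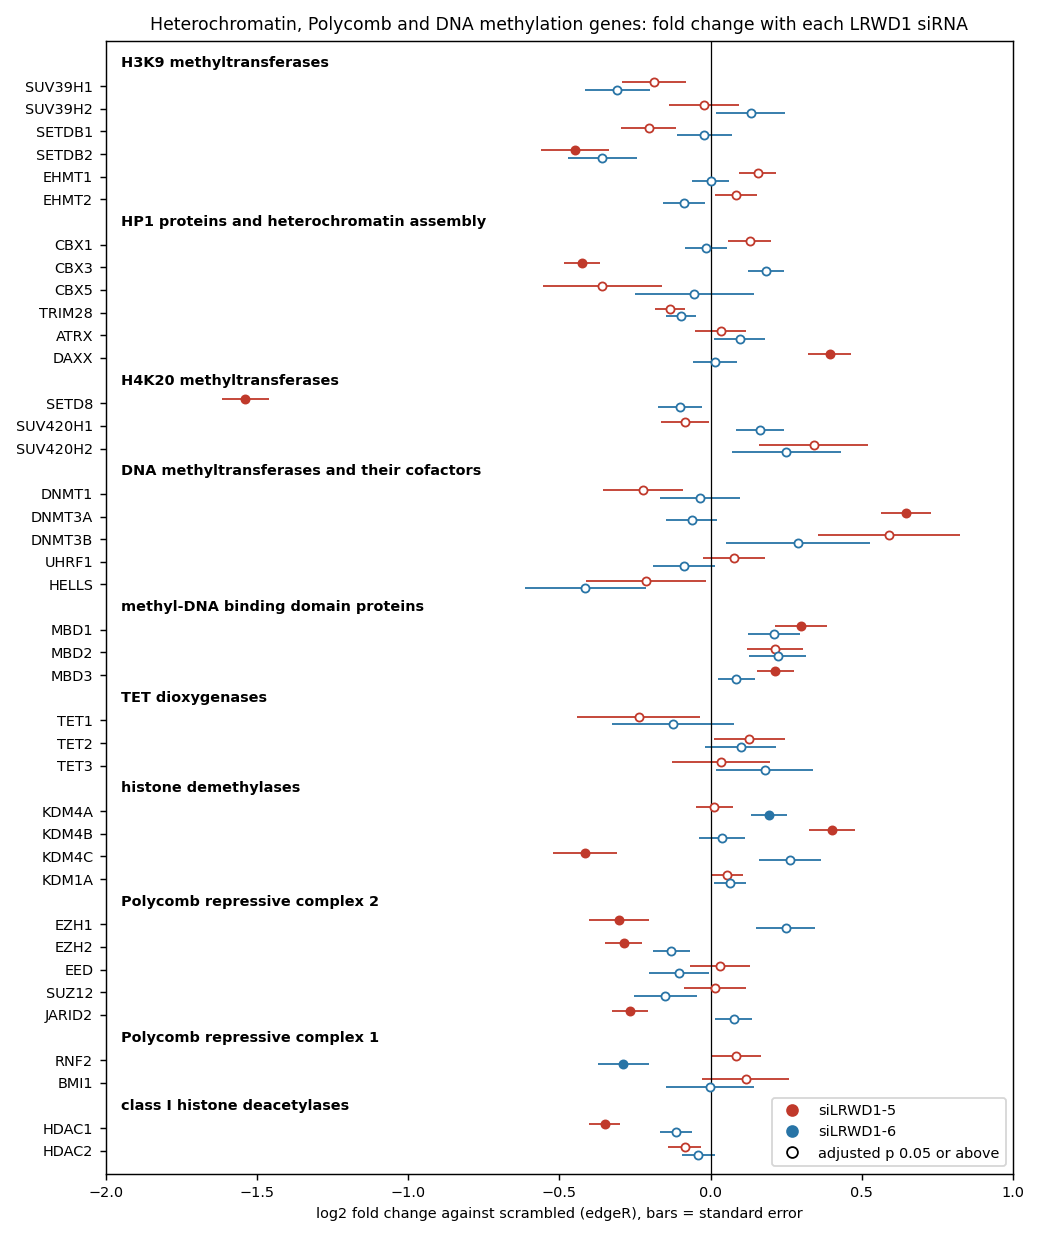
Log2 fold change against scrambled siRNA (horizontal axis, bars are standard errors) of each of the 39 genes, grouped by role, with siLRWD1-5 in red and siLRWD1-6 in blue. Filled points had an adjusted p under 0.05: 13 with siLRWD1-5, led by SETD8 at -1.54, and 2 with siLRWD1-6, KDM4A and RNF2.

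SETD8, the enzyme that monomethylates H4K20 and whose protein level swings through the cell cycle, was the one gene of the 39 that changed at least 2-fold. It had 22.8, 23.4 and 20.3 CPM with siLRWD1-5, 59.3, 61.1 and 59.9 CPM with siLRWD1-6, against 67.7, 60.2 and 65.6 CPM with scrambled siRNA. All 3 siLRWD1-5 libraries lay far below the other 6, whereas the siLRWD1-6 and scrambled libraries overlapped. With siLRWD1-5 it was 2.91-fold lower (log2 fold change -1.54 ± 0.08, adjusted p = 1.35e-07, where ± gives the SE here and below), and siLRWD1-6 was 2.71-fold above siLRWD1-5 (log2 fold change 1.44 ± 0.08, adjusted p = 1.63e-07). Against scrambled siRNA, siLRWD1-6 gave log2 fold change -0.10 ± 0.07, adjusted p = 0.384. The call with siLRWD1-5 held in all 18 alternative settings, with log2 fold changes of -1.61 to -1.48. RefSeq lists 3 pseudogenes named after this gene and 1 overlapping gene, RILPL2. RILPL2 had 192, 183 and 170 counts with siLRWD1-5, 135, 149 and 129 with siLRWD1-6, against 136, 123 and 105 with scrambled siRNA. SETD8 had 362, 316 and 250 counts with siLRWD1-5, 851, 836 and 708 with siLRWD1-6, against 1071, 743 and 850 with scrambled siRNA. How reads were shared between the overlapping genes was not tested.

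The SUV420H enzymes, which add further methyl groups to H4K20, were not called against scrambled siRNA by edgeR with all 9 libraries. SUV420H1 had 38.9, 39.4 and 38.6 CPM with siLRWD1-5, 46.9, 44.5 and 47.3 CPM with siLRWD1-6, against 37.4, 45.5 and 41.2 CPM with scrambled siRNA. It was higher with siLRWD1-6 than with siLRWD1-5 (log2 fold change 0.25 ± 0.08, adjusted p = 0.0258), a call lost in 6 of 18 settings, and against scrambled its log2 fold changes were -0.08 with siLRWD1-5 (adjusted p = 0.439) and 0.16 with siLRWD1-6 (adjusted p = 0.191). SUV420H2 had 18.7, 16.6 and 16.8 CPM with siLRWD1-5, 16.3, 15.7 and 16.9 CPM with siLRWD1-6, against 16.8, 8.996 and 15.05 CPM with scrambled siRNA, where replicate 2 was the low library. Its log2 fold changes were 0.34 with siLRWD1-5 (adjusted p = 0.158) and 0.25 with siLRWD1-6 (adjusted p = 0.393). Without scrambled replicate 2, SUV420H1 was called higher with siLRWD1-6 (0.25, adjusted p = 0.0182). In that fit the log2 fold changes of SUV420H2 were 0.12 with siLRWD1-5 and 0.04 with siLRWD1-6, and it was called higher with siLRWD1-5 only in the fit without scrambled replicate 1.

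Of the 6 H3K9 methyltransferase genes, SETDB2, which encodes a SETDB1 relative, was the only one called in the reported edgeR fit. It had 10.96, 10.1 and 11.04 CPM with siLRWD1-5, 11.2, 10.4 and 12.6 CPM with siLRWD1-6, against 13.4, 16.05 and 14.5 CPM with scrambled siRNA. All 6 LRWD1 siRNA libraries lay below all 3 scrambled ones. It was called lower with siLRWD1-5 (log2 fold change -0.45 ± 0.11, adjusted p = 0.00902), and siLRWD1-6 narrowly missed the threshold (log2 fold change -0.36 ± 0.11, adjusted p = 0.0517). The difference between the siRNAs was 0.09 (SE 0.12, adjusted p = 0.56), so like and unlike levels with the 2 siRNAs cannot be told apart here. The call with siLRWD1-5 was lost when only the libraries numbered 1 and 3 were fitted (log2 fold change -0.33, adjusted p = 0.0512 by edgeR, against 0.00905 at the lowest of the 18 settings).

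SUV39H1, one of the pair of enzymes that trimethylate H3K9 at pericentromeric repeats, had 21.2, 21.3 and 24.2 CPM with siLRWD1-5, 20.6, 20.7 and 19.9 CPM with siLRWD1-6, against 27.2, 21.3 and 27.2 CPM with scrambled siRNA. With siLRWD1-6 all 3 libraries lay below every scrambled library, although it was not called (log2 fold change -0.31 ± 0.11, adjusted p = 0.0736). Without scrambled replicate 2 it was lower with both siRNAs, at -0.30 (SE 0.09, adjusted p = 0.0115) for siLRWD1-5 and -0.40 (SE 0.09, adjusted p = 0.00255) for siLRWD1-6. Its paralog SUV39H2 had log2 fold changes of -0.02 with siLRWD1-5 and 0.13 with siLRWD1-6 and no call with or without that library. SETDB1, which methylates H3K9 at retroelements recruited through TRIM28, had 52.8, 60.1 and 55.9 CPM with siLRWD1-5, 64.5, 62.2 and 64.9 CPM with siLRWD1-6, against 71.2, 55.8 and 67.2 CPM with scrambled siRNA. Only the fit without scrambled replicate 2, and the fit of libraries 1 and 3, called it lower with siLRWD1-5 (-0.30 without that library, adjusted p = 0.00121 by edgeR). EHMT1 and EHMT2, the partner enzymes of H3K9 dimethylation in euchromatin, had log2 fold changes of 0.16 and 0.08 with siLRWD1-5 and of 0.00 and -0.09 with siLRWD1-6, with adjusted p-values of 0.0631 or above. EHMT1 was called higher with siLRWD1-5 with the replicate block and with no scaling. Between siLRWD1-6 and siLRWD1-5 both were called lower with the replicate block and without scrambled replicate 2 (in the second of these, adjusted p = 0.0325 for EHMT1 and 0.0236 for EHMT2).

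Of the 3 HP1 genes, whose products bind methylated H3K9, CBX3 was called with all libraries. CBX3, which encodes HP1 gamma, had 127, 131 and 119.9 CPM with siLRWD1-5, 195, 191 and 191 CPM with siLRWD1-6, against 178, 162 and 168 CPM with scrambled siRNA. The 3 groups did not overlap, with siLRWD1-5 lowest and siLRWD1-6 highest. It fell with siLRWD1-5 (log2 fold change -0.43 ± 0.06, adjusted p = 0.000199) and was 1.53-fold higher with siLRWD1-6 than with siLRWD1-5 (log2 fold change 0.61 ± 0.06, adjusted p = 1.15e-05). The difference of siLRWD1-6 from scrambled was just short of the threshold (log2 fold change 0.18 ± 0.06, adjusted p = 0.0542) and passed it with RLE scaling, a filter at 1 CPM, DESeq2, the replicate number as a block and without scrambled replicate 2 (adjusted p = 0.0408, with log2 fold changes of 0.16 to 0.22 over all settings). RefSeq lists 10 pseudogenes named after CBX3, of which the 1 in the count table had at most 6 counts.

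CBX1, encoding HP1 beta, had 192, 192 and 189 CPM with siLRWD1-5, 179, 175 and 163 CPM with siLRWD1-6, against 185, 157 and 182 CPM with scrambled siRNA, and edgeR with all libraries called it in no comparison. Between siLRWD1-6 and siLRWD1-5 it was called lower in 3 of 18 settings (adjusted p = 0.0369 without scrambled replicate 2). For CBX5, encoding HP1 alpha, the values were 196, 166 and 181 CPM with siLRWD1-5, 232, 218 and 222 CPM with siLRWD1-6, against 254, 152 and 289.7 CPM with scrambled siRNA. Scrambled replicate 2 was the low library and the other scrambled libraries the high ones, which left an SE of 0.20 and no call (-0.36 with siLRWD1-5 and -0.05 with siLRWD1-6). When that library was left out, CBX5 was 1.502-fold lower with siLRWD1-5 (adjusted p = 5.87e-07) and 1.21-fold lower with siLRWD1-6 (adjusted p = 0.00575).

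DAXX, the histone chaperone that deposits H3.3 together with ATRX, rose with siLRWD1-5. It had 178, 205 and 176 CPM with siLRWD1-5, 142, 146 and 142 CPM with siLRWD1-6, against 142, 149.8 and 134 CPM with scrambled siRNA, and the siLRWD1-5 libraries lay above all others (log2 fold change 0.39 ± 0.07, adjusted p = 0.00118). siLRWD1-6 left it lower than siLRWD1-5 (log2 fold change -0.38 ± 0.07, adjusted p = 0.00126) and close to scrambled (0.01). ATRX itself had log2 fold changes of 0.03 with siLRWD1-5 and 0.10 with siLRWD1-6. TRIM28, the corepressor of KRAB zinc finger proteins, also called KAP1, had -0.13 with siLRWD1-5 (adjusted p = 0.0526) and -0.10 with siLRWD1-6 (adjusted p = 0.212). With siLRWD1-5 TRIM28 was called lower by DESeq2, limma-voom, the block fit, without scrambled replicate 2 and with libraries 1 and 3 alone.

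Among the 3 DNA methyltransferases, DNMT3A was the one called in the reported edgeR fit. DNMT3A, a de novo enzyme, had 114, 124 and 108 CPM with siLRWD1-5, 71.5, 72.7 and 67.6 CPM with siLRWD1-6, against 74.9, 65.5 and 80.7 CPM with scrambled siRNA. The siLRWD1-5 libraries lay above all other libraries, 1.57-fold over scrambled (log2 fold change 0.65 ± 0.08, adjusted p = 0.000112), while siLRWD1-6 was lower than siLRWD1-5 by 0.71 on the log2 scale (SE 0.08, adjusted p = 4.57e-05). It was the gene of the 39 with the highest fold change for siLRWD1-5, and the call held in all 18 settings.

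DNMT3B, the other de novo enzyme, had 25.4, 19.5 and 25.9 CPM with siLRWD1-5, 20.7, 17.2 and 19.6 CPM with siLRWD1-6, against 19.1, 9.24 and 18.4 CPM with scrambled siRNA. All 3 siLRWD1-5 libraries lay above all 3 controls, of which scrambled replicate 2 was far the lowest. The log2 fold change of 0.59 with siLRWD1-5 was not called by edgeR (adjusted p = 0.0738), but it was by DESeq2 and limma-voom and with the replicate number as a block. Without scrambled replicate 2 it was smaller and called (0.33, adjusted p = 0.0266). DNMT1, the maintenance enzyme, had 362, 343 and 373 CPM with siLRWD1-5, 400.3, 414 and 415 CPM with siLRWD1-6, against 457, 315 and 486 CPM with scrambled siRNA. Scrambled replicate 2 lay below all 6 LRWD1 siRNA libraries and the other scrambled libraries above them. With all libraries its log2 fold changes were -0.22 with siLRWD1-5 (adjusted p = 0.212) and -0.03 with siLRWD1-6 (adjusted p = 0.898). Without it DNMT1 was 1.31-fold lower with siLRWD1-5 (adjusted p = 5.6e-06) and 1.14-fold lower with siLRWD1-6 (adjusted p = 0.0137).

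UHRF1, which brings DNMT1 to hemimethylated DNA, had 112, 110.4 and 125 CPM with siLRWD1-5, 101, 98.9 and 109 CPM with siLRWD1-6, against 120.5, 90.1 and 118 CPM with scrambled siRNA. HELLS, the chromatin remodeller also called LSH, had 67.1, 52.00 and 61.6 CPM with siLRWD1-5, 55.3, 53.6 and 48.4 CPM with siLRWD1-6, against 82.2, 46.1 and 81.1 CPM with scrambled siRNA. In both genes scrambled replicate 2 was again the low control. With all libraries the log2 fold changes of HELLS were -0.21 with siLRWD1-5 (adjusted p = 0.432) and -0.41 with siLRWD1-6 (adjusted p = 0.201), and those of UHRF1 were 0.08 with siLRWD1-5 (adjusted p = 0.589) and -0.09 with siLRWD1-6 (adjusted p = 0.618). Without scrambled replicate 2 those of HELLS were -0.44 with siLRWD1-5 (adjusted p = 0.000315) and -0.63 with siLRWD1-6 (adjusted p = 1.9e-05), both called. UHRF1 was called lower with siLRWD1-6 in that fit (-0.20, adjusted p = 0.029).

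The 3 methyl-CpG binding domain genes had positive fold changes with both siRNAs. MBD1, which binds methylated CpG, had 57.02, 57.8 and 57.9 CPM with siLRWD1-5, 49.9, 55.8 and 56.6 CPM with siLRWD1-6, against 42.3, 52.5 and 45.8 CPM with scrambled siRNA, and rose with siLRWD1-5 (log2 fold change 0.30 ± 0.09, adjusted p = 0.0172). MBD3, a NuRD complex subunit, had 135, 144 and 144 CPM with siLRWD1-5, 132, 127 and 128 CPM with siLRWD1-6, against 129, 120.2 and 115 CPM with scrambled siRNA, and also rose with siLRWD1-5 (log2 fold change 0.21 ± 0.06, adjusted p = 0.0171). Both lost the call when scrambled replicate 3 was left out, MBD1 also without scrambled replicate 1 and MBD3 also without siLRWD1-5 replicate 2 or 3. MBD2, the methyl-CpG binding NuRD subunit, had 34.4, 37.3 and 36.7 CPM with siLRWD1-5, 37.3, 37.3 and 34.1 CPM with siLRWD1-6, against 28.1, 35.5 and 29.9 CPM with scrambled siRNA. Here scrambled replicate 2 was the high control, and without it both MBD2 and MBD1 were higher with both siRNAs. The log2 fold changes were then 0.31 with siLRWD1-5 (adjusted p = 0.00381) and 0.34 with siLRWD1-6 (adjusted p = 0.00454) for MBD2, and 0.39 with siLRWD1-5 (adjusted p = 0.000222) and 0.31 with siLRWD1-6 (adjusted p = 0.00403) for MBD1.

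The TET genes, whose products oxidise 5-methylcytosine, were not called in any comparison with all libraries by edgeR, DESeq2 or limma-voom, and 0 of the 3 had an unadjusted p under 0.05. TET1 had 20.5, 18.3 and 18.4 CPM with siLRWD1-5, 19.9, 20.6 and 21.5 CPM with siLRWD1-6, against 24.3, 14.3 and 28.9 CPM with scrambled siRNA. TET2 had 54.1, 49.1 and 54.1 CPM with siLRWD1-5, 53.1, 49.9 and 51.1 CPM with siLRWD1-6, against 47.8, 38.7 and 57.3 CPM with scrambled siRNA. TET3 had 90.9, 87.9 and 87.3 CPM with siLRWD1-5, 95.3, 99.1 and 99.6 CPM with siLRWD1-6, against 90.3, 61.3 and 108 CPM with scrambled siRNA. In all 3 genes scrambled replicate 2 was lower than every other library, and the LRWD1 siRNA libraries spread over a narrower range than the controls. When that library was left out, TET1 was lower with both siRNAs, at -0.47 with siLRWD1-5 (adjusted p = 0.000571) and -0.35 with siLRWD1-6 (adjusted p = 0.0124). In the same fit TET3 was called higher with siLRWD1-6 than with siLRWD1-5 (0.16, adjusted p = 0.0417), and its log2 fold change with siLRWD1-5 was -0.16, against 0.03 with all libraries.

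The 3 KDM4 genes, which encode H3K9 and H3K36 demethylases, were called in different directions. KDM4B had 75.7, 78.7 and 85.97 CPM with siLRWD1-5, 62.01, 60.5 and 64.3 CPM with siLRWD1-6, against 56.4, 65.8 and 59.8 CPM with scrambled siRNA, and rose with siLRWD1-5 (log2 fold change 0.40 ± 0.08, adjusted p = 0.00155). KDM4C had 16.3, 17.1 and 17.5 CPM with siLRWD1-5, 27.7, 29.4 and 24.04 CPM with siLRWD1-6, against 22.9, 24.6 and 20.1 CPM with scrambled siRNA, and fell with siLRWD1-5 (log2 fold change -0.41 ± 0.11, adjusted p = 0.00916). The siRNAs differed from each other in both genes, siLRWD1-6 being lower than siLRWD1-5 for KDM4B (log2 fold change -0.36 ± 0.08, adjusted p = 0.00247) and 1.598-fold higher for KDM4C (log2 fold change 0.68 ± 0.10, adjusted p = 0.000337).

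KDM4A had 99.9, 103 and 100.4 CPM with siLRWD1-5, 114, 118 and 112 CPM with siLRWD1-6, against 95.4, 106 and 98.7 CPM with scrambled siRNA. The siLRWD1-6 libraries were the high ones, above scrambled (log2 fold change 0.19 ± 0.06, adjusted p = 0.0483) and above siLRWD1-5 (log2 fold change 0.18 ± 0.06, adjusted p = 0.03). The first of these calls was lost in 10 of 18 settings, with adjusted p-values between 0.00317 and 0.163, and was larger without scrambled replicate 2 (0.25). KDM1A, the H3K4 demethylase LSD1, stayed between 182 and 199.8 CPM in the 9 libraries, and its log2 fold changes were 0.06 with siLRWD1-5 and 0.06 with siLRWD1-6.

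Of the 5 genes of Polycomb repressive complex 2, 3 were lower with siLRWD1-5, by 1.203- to 1.23-fold. EZH2, the H3K27 methyltransferase of proliferating cells, had 120.3, 117 and 111 CPM with siLRWD1-5, 133, 132 and 124 CPM with siLRWD1-6, against 146, 135 and 145 CPM with scrambled siRNA. The 3 groups did not overlap, with siLRWD1-5 lowest (log2 fold change -0.29 ± 0.06, adjusted p = 0.00347) and siLRWD1-6 between it and scrambled (log2 fold change -0.13 ± 0.06, adjusted p = 0.182). EZH1, its paralog found more in resting cells, had 27.2, 31.2 and 26.9 CPM with siLRWD1-5, 46.1, 40.99 and 37.7 CPM with siLRWD1-6, against 35.4, 37.3 and 32.5 CPM with scrambled siRNA. It was lower with siLRWD1-5 (log2 fold change -0.30 ± 0.10, adjusted p = 0.0297) and 1.47-fold higher with siLRWD1-6 than with siLRWD1-5 (log2 fold change 0.55 ± 0.10, adjusted p = 0.00086). The fall of EZH1 against scrambled was lost in 4 settings: no scaling beyond library size, and without siLRWD1-5 replicate 1, siLRWD1-5 replicate 3 or scrambled replicate 1 (adjusted p up to 0.101).

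JARID2, an accessory subunit that helps the complex find its sites, had 79.1, 73.3 and 79.7 CPM with siLRWD1-5, 99.01, 96.9 and 98.5 CPM with siLRWD1-6, against 93.1, 89.4 and 96.8 CPM with scrambled siRNA. It fell with siLRWD1-5 (log2 fold change -0.27 ± 0.06, adjusted p = 0.00471) and was higher with siLRWD1-6 than with siLRWD1-5 (log2 fold change 0.34 ± 0.06, adjusted p = 0.000821). The core subunits EED and SUZ12 had log2 fold changes of 0.03 and 0.02 with siLRWD1-5 and of -0.11 and -0.15 with siLRWD1-6, with no call. Without scrambled replicate 2, SUZ12 was lower with siLRWD1-6 (-0.26, adjusted p = 0.0087).

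RNF2, the catalytic ubiquitin ligase of Polycomb repressive complex 1, was the one gene called lower with siLRWD1-6. It had 51.7, 48.9 and 52.3 CPM with siLRWD1-5, 40.3, 42.2 and 35.5 CPM with siLRWD1-6, against 48.6, 44.3 and 51.2 CPM with scrambled siRNA. The siLRWD1-6 libraries lay below all others, against scrambled (log2 fold change -0.29 ± 0.08, adjusted p = 0.0365) and against siLRWD1-5 (log2 fold change -0.37 ± 0.08, adjusted p = 0.00378). The difference between the siRNAs held in all 18 settings, whereas the call against scrambled was lost in 8 of them (adjusted p of 0.0014 to 0.175). BMI1, its partner, had 6.17, 6.59 and 6.98 CPM with siLRWD1-5, 5.64, 6.36 and 6.18 CPM with siLRWD1-6, against 6.25, 5.11 and 6.79 CPM with scrambled siRNA and no call. That level is uncertain, because BMI1 shares exons with the annotated read-through gene COMMD3-BMI1, which is listed at 0 in all 9 libraries.

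Of HDAC1 and HDAC2, the class I deacetylases of the NuRD, Sin3 and CoREST complexes, HDAC1 was called. HDAC1 had 239.6, 228 and 232 CPM with siLRWD1-5, 279, 269 and 276 CPM with siLRWD1-6, against 306, 298 and 288 CPM with scrambled siRNA. The 3 groups did not overlap, and it fell with siLRWD1-5 (log2 fold change -0.35 ± 0.05, adjusted p = 0.000321) and was higher with siLRWD1-6 than with siLRWD1-5 (log2 fold change 0.24 ± 0.05, adjusted p = 0.00353). HDAC2 had 303, 306 and 304 CPM with siLRWD1-5, 314, 329.9 and 296 CPM with siLRWD1-6, against 317, 328 and 322 CPM with scrambled siRNA, with log2 fold changes of -0.09 with siLRWD1-5 and -0.04 with siLRWD1-6.

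**Figure D2:**
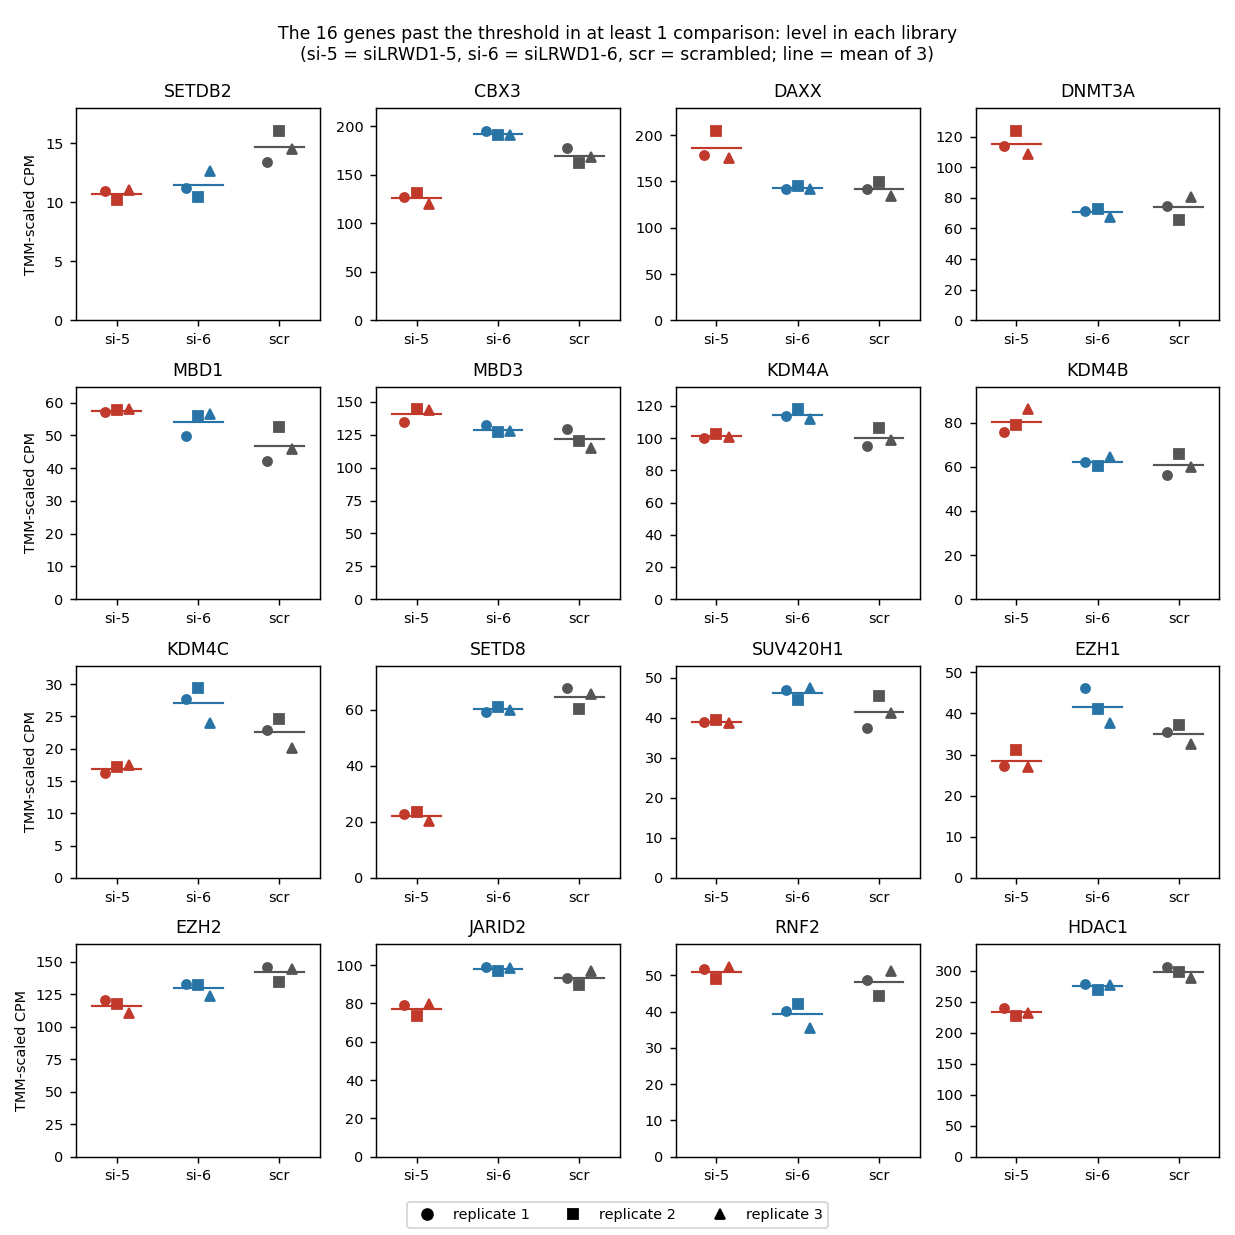
TMM-scaled CPM (vertical axis, from 0) of the 16 genes called in at least 1 comparison, for the 3 libraries each of siLRWD1-5, siLRWD1-6 and scrambled siRNA, with symbols for the replicate number and lines for the group means. SETD8 was low in all 3 siLRWD1-5 libraries, and DNMT3A, DAXX and KDM4B were high in them.

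Between the siRNAs, the 8 genes higher with siLRWD1-6 had log2 fold changes of 0.18 (KDM4A) to 1.44 (SETD8), and the 4 lower ones of -0.71 (DNMT3A) to -0.36 (KDM4B). Of these 12 calls, 10 held in all 18 settings, and those of KDM4A and SUV420H1 were each lost in 6. Scrambled libraries enter this comparison through the shared estimate of spread, the scaling and the count filter. MBD1, MBD3, SETDB2 and EZH2 were called with siLRWD1-5 against scrambled but did not differ between the siRNAs past the threshold with all libraries (adjusted p = 0.42, 0.113, 0.56 and 0.0581 by edgeR). EZH2 was called higher with siLRWD1-6 than with siLRWD1-5 in 5 of 18 settings, among them the replicate block and the fit without scrambled replicate 2 (adjusted p = 0.0121), and MBD3 was called lower in 2. Their log2 fold changes against scrambled had the same sign with both siRNAs. With siLRWD1-5 they were 0.30 for MBD1, 0.21 for MBD3, -0.45 for SETDB2 and -0.29 for EZH2. With siLRWD1-6 they were 0.21, 0.09, -0.36 and -0.13, none of them past the threshold.

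Scrambled replicate 2 was lower than the mean of scrambled replicates 1 and 3 for 28 of the 39 genes and higher for 11, with a median log2 difference of -0.15. The low end held DNMT3B (-1.02), TET1 (-0.89), CBX5 (-0.84), HELLS (-0.82), SUV420H2 (-0.82), TET3 (-0.69) and DNMT1 (-0.58). The high end held MBD2 (0.29), MBD1 (0.26), SUV420H1 (0.21) and SETDB2 (0.20). By role, the 5 DNA methyltransferase and cofactor genes (median -0.58) and the 3 TET genes (median -0.69) were all lower there. The summed level of the 29 DNA replication genes was 3259 to 3667 CPM with siLRWD1-5, 3584 to 3665 CPM with siLRWD1-6, 2889 CPM in scrambled replicate 2 and 4482 and 4539 CPM in scrambled replicates 1 and 3. All 6 LRWD1 siRNA libraries lay above scrambled replicate 2 and below the other scrambled libraries. The summed level of the 22 mitosis genes took the same order, at 2996 to 3362 CPM with siLRWD1-5, 3446 to 3586 CPM with siLRWD1-6, 2255 CPM in scrambled replicate 2 and 3899 and 4091 CPM in the others. The part of these genes in the differences among the 39 was not tested, and in bulk libraries a smaller share of cycling cells and less RNA per cell cannot be told apart.

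**Figure D3:**
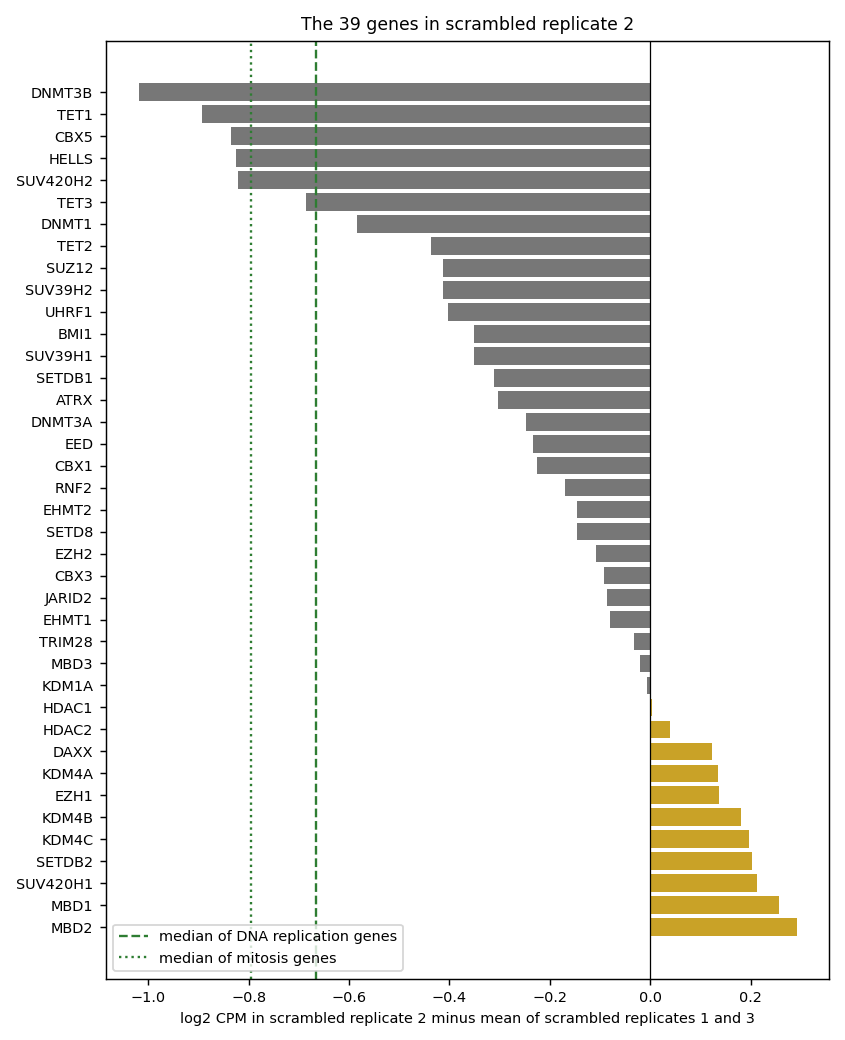
Log2 CPM of each of the 39 genes in scrambled replicate 2 minus the mean of scrambled replicates 1 and 3 (horizontal axis), sorted by value, with green lines at the medians of the DNA replication (-0.67) and mitosis (-0.79) genes. Grey bars are the 28 lower genes, from DNMT3B at -1.02, and yellow bars the 11 higher ones, up to MBD2 at 0.29.

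Promoters are shown for the genes among these that carry an E2F-type word, since E2F factors are known to drive genes of DNA replication. The words searched on both strands were TTTCCCGC, TTTGGCGC, TTTCGCGC and TTTGCCGC, which do not overlap one another in these windows, in RefSeq promoters of GRCh38.p14 that run from 250 bases before to 50 after each gene's start. Of the 39 genes 36 had a promoter in that table, and 7 of these (19.4%) held a word, against 15 of 25 matched DNA replication genes (60%), 3 of 18 matched mitosis genes (16.7%) and 3.99% of all 27305 genes in it. HELLS held 2 words, at -76 and -8 bases from its start, UHRF1 held 1 in each of 2 promoters, and SUZ12 and EZH1 held 1 each. DNMT1, CBX3 and EZH2 held 1 across or just after the start and are not shown. The windows are chr10:94545652-94545787 (plus strand) for HELLS, chr19:4909427-4909500 and chr19:4909924-4910051 (plus) for UHRF1, chr17:31936758-31936885 (plus) for SUZ12 and chr17:42745088-42745215 (minus) for EZH1, all upstream of the start. Each is written 5′ to 3′ on the gene's strand, with the words in capitals.
HELLS: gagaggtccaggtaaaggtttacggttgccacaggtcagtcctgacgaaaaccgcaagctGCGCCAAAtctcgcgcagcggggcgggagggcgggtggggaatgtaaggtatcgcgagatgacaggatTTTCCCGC
UHRF1 upstream promoter: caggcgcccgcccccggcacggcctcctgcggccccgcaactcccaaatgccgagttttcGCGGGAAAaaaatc
UHRF1 downstream promoter: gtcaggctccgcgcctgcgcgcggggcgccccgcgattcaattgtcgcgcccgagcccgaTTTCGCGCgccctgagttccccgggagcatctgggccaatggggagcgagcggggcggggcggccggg
SUZ12: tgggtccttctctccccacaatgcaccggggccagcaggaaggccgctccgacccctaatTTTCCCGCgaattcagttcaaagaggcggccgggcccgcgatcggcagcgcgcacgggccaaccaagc
EZH1: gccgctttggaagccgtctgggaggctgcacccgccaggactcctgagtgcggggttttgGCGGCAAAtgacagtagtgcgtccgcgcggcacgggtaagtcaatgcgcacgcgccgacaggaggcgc

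HELLS, DNMT1, SUZ12 and UHRF1, with a word, were low in scrambled replicate 2 (-0.82, -0.58, -0.41 and -0.40 on the log2 scale). CBX3, EZH2 and EZH1, also with a word, differed little there (-0.09, -0.11 and 0.14). No word was found for DNMT3B, TET1, CBX5, SUV420H2 and TET3, among the lowest there. Only 36 of the 39 genes had a promoter to search, so a gene without a word may not have been searched. A word is a match of letters and does not show binding.

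Leaving out scrambled replicate 2 changed how the 39 genes compared with the background. With siLRWD1-5 it gave 7 higher and 15 lower genes, 56.4% of the 39 against 49.0% of all genes, and with siLRWD1-6 it gave 7 higher and 8 lower genes, 38.5% against 28.5%. The 13 and 2 genes called with all libraries were still called, with 9 and 13 genes added. Lower with both siRNAs in that fit were SUV39H1, CBX5, DNMT1, HELLS and TET1, and higher with both were MBD1 and MBD2. Both comparisons there rest on scrambled replicates 1 and 3 alone, so likeness of the siRNAs is not independent. The library left out was singled out by its values. Among libraries numbered 2, CBX5, DNMT1, HELLS and TET1 were instead higher than scrambled with both siRNAs. Their log2 CPM differences were 0.13, 0.12, 0.17 and 0.36 with siLRWD1-5 and 0.52, 0.40, 0.22 and 0.53 with siLRWD1-6. SUV39H1, MBD1 and MBD2 kept their direction there. Without scrambled replicate 2, CBX3, KDM4C and EZH1 were called in opposite directions, lower with siLRWD1-5 and higher with siLRWD1-6. For KDM4C the values were -0.35 with siLRWD1-5 and 0.34 with siLRWD1-6, for EZH1 -0.26 and 0.30. In the same fit 22 of 29 DNA replication genes were lower with siLRWD1-5 and 20 with siLRWD1-6, and 14 and 12 of 22 mitosis genes. With all 9 libraries those counts were 8 and 1 DNA replication genes, and 4 mitosis genes with siLRWD1-5. With all libraries and siLRWD1-6, 0 mitosis genes were called by edgeR, DESeq2 or limma-voom, and 0 had an unadjusted p under 0.05. Between siLRWD1-6 and siLRWD1-5 the fit without scrambled replicate 2 gave 13 higher and 9 lower of the 39, 56.4% against 54.4% of all genes. It called CBX5 (0.32, adjusted p = 0.00024 by edgeR) and DNMT1 (0.20, adjusted p = 0.00193) higher with siLRWD1-6. SETDB1 was also higher (0.20, adjusted p = 0.0127), and DNMT3B (-0.29, adjusted p = 0.0271) and UHRF1 (-0.15, adjusted p = 0.037) lower.

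**Figure D4:**
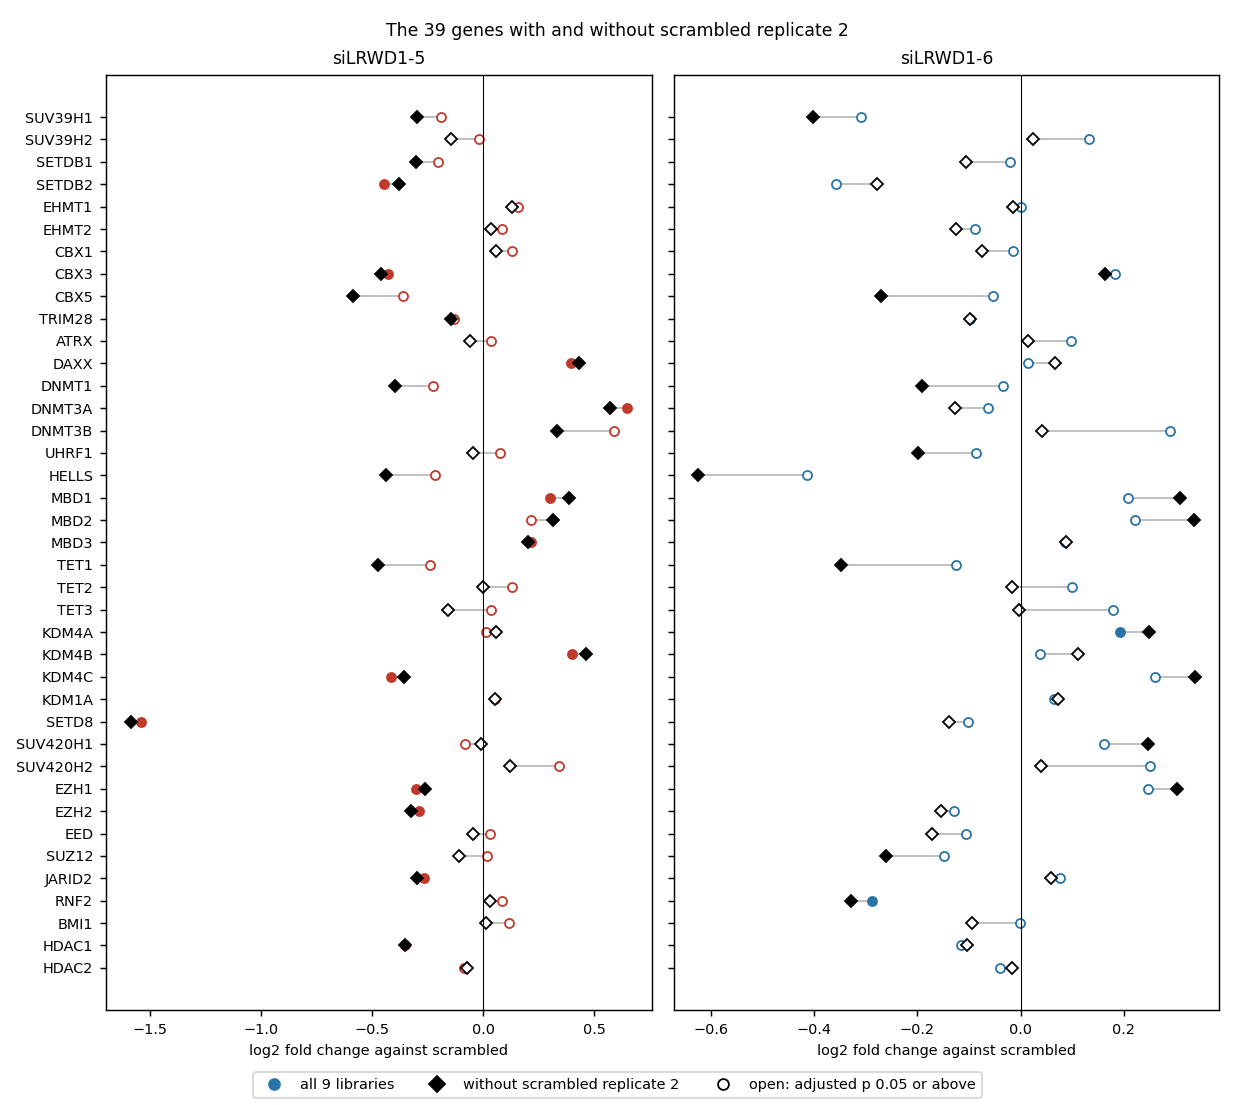
Log2 fold change against scrambled siRNA of each gene with all 9 libraries (circles) and without scrambled replicate 2 (diamonds), for siLRWD1-5 on the left (red) and siLRWD1-6 on the right (blue), with its own horizontal scale in each panel. Filled symbols had an adjusted p under 0.05: 13 circles and 22 diamonds with siLRWD1-5, 2 circles and 15 diamonds with siLRWD1-6.

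Levels of different genes were compared per kb of the longest coding transcript in GENCODE v29 (CPM per kb, n = 3 libraries a group). TRIM28 was highest, at 213 ± 6.19 CPM per kb with siLRWD1-5, 218 ± 2.85 with siLRWD1-6 and 233 ± 4.01 with scrambled siRNA (SD). Among the DNA methyltransferases DNMT1 led, with 66.4 ± 2.81 CPM per kb with siLRWD1-5, 75.8 ± 1.52 with siLRWD1-6 and 77.5 ± 16.99 with scrambled siRNA. DNMT3A had 12.2 ± 0.822 CPM per kb with siLRWD1-5, 7.43 ± 0.283 with siLRWD1-6 and 7.76 ± 0.809 with scrambled siRNA, and DNMT3B had 5.44 ± 0.823, 4.41 ± 0.415 and 3.59 ± 1.26 in those groups. EZH2 stood above EZH1 in every library, at 53.7 ± 2.32 CPM per kb with scrambled siRNA against 7.59 ± 0.523 for EZH1. HDAC1 stood above HDAC2 in every library, at 140.0 ± 4.09 against 32.7 ± 0.558 CPM per kb with scrambled siRNA. In CPM HDAC2 stood above HDAC1 in every library, so their order rests on the lengths used, 2124 bases for HDAC1 and 9874 for HDAC2.

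With scrambled siRNA, CBX3 and CBX1 had 79.6 ± 3.66 and 72.04 ± 6.38 CPM per kb, which overlapped within their spread, and CBX5 had 20.1 ± 6.196. The length used for CBX5 was 11528 bases, against 2128 for CBX3 and 2422 for CBX1. In CPM CBX5 had the highest mean of these genes with scrambled siRNA, at 232 against 169 for CBX3 and 174 for CBX1. With siLRWD1-5 CBX3 had 59.3 ± 2.72 CPM per kb, below CBX1 at 78.8 ± 0.668. Of the H4K20 enzymes SETD8 had 7.06 ± 0.526 CPM per kb with siLRWD1-5, beside 6.68 ± 0.0668 for SUV420H1 and 7.52 ± 0.4905 for SUV420H2. With scrambled siRNA it stood above both, at 20.5 ± 1.22 against 7.08 ± 0.691 for SUV420H1 and 5.899 ± 1.77 for SUV420H2. TET1, SETDB2 and BMI1 were the lowest of the 39 with scrambled siRNA, at 2.42 ± 0.804, 2.39 ± 0.217 and 1.76 ± 0.251 CPM per kb. Lengths from another annotation than the authors' scale each gene's level, and so its rank among genes, but not its fold changes. Which transcripts the cells used was not tested.

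**Figure D5:**
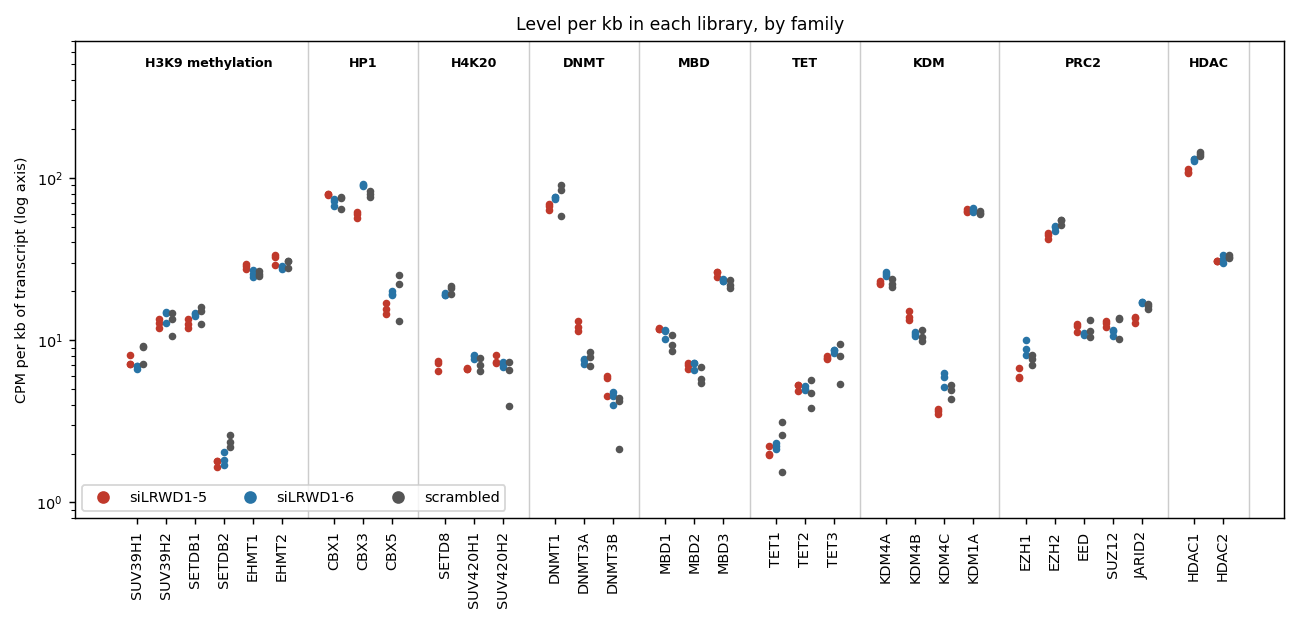
CPM per kb of transcript (vertical log axis) in each library of siLRWD1-5, siLRWD1-6 and scrambled siRNA for the enzyme and reader families, one column of points per group and gene. SETD8 drops to the level of the SUV420H genes with siLRWD1-5, and CBX3 falls below CBX1 there.

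Further genes of the same pathways were read from lists outside the 39. Of 30 other Polycomb genes, 3 were higher and 8 lower with siLRWD1-5 and 2 were higher with siLRWD1-6. Leaving out scrambled replicate 2 gave 4 higher and 10 lower with siLRWD1-5, and 4 higher and 6 lower with siLRWD1-6. That fit called more of all genes too, 49% with siLRWD1-5 and 28.5% with siLRWD1-6, against 38.8% and 16.6% with all libraries. The same background applies to the lists that follow. CBX7, a chromodomain subunit of Polycomb repressive complex 1, had 7.31, 7.85 and 7.79 CPM with siLRWD1-5, 4.39, 4.09 and 4.49 CPM with siLRWD1-6, against 5.12, 2.27 and 3.55 CPM with scrambled siRNA (log2 fold change 1.04 ± 0.22, adjusted p = 0.0035 for siLRWD1-5). Its relative CBX6 fell with siLRWD1-5 (-0.45, adjusted p = 0.000166), as did the histone chaperone RBBP4 (-0.40, adjusted p = 0.000827). PCGF3, a RING finger subunit of variant forms of that complex, rose with siLRWD1-5 (0.25, adjusted p = 0.0184). MTF2, an accessory subunit of Polycomb repressive complex 2, was higher with siLRWD1-5 and siLRWD1-6, at 0.18 with siLRWD1-5 (adjusted p = 0.0305) and 0.44 with siLRWD1-6 (adjusted p = 0.000465). RYBP, another subunit of those variant forms, was higher with siLRWD1-6 (0.24, adjusted p = 0.0318) and lower with siLRWD1-5 (-0.20, adjusted p = 0.0357).

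Of 26 tested heterochromatin genes outside the 39, 1 was higher and 9 lower with siLRWD1-5, and 2 were higher and 2 lower with siLRWD1-6. These counts include LRWD1, the target of both siRNAs, among the lower genes with each. With scrambled replicate 2 left out, 4 were higher and 12 lower with siLRWD1-5, and 4 higher and 6 lower with siLRWD1-6. PPHLN1 and FAM208A, subunits of the HUSH silencing complex, fell with siLRWD1-5 (-0.76 and -0.56, adjusted p = 3.67e-05 and 0.000347), whereas MPHOSPH8, which encodes another subunit, rose (0.25, adjusted p = 0.0109). PHF2, a Jumonji demethylase gene, also fell (-0.61, adjusted p = 0.000293). With siLRWD1-6, LRIF1, an HP1-binding factor, and SMARCAD1, a chromatin remodeller, rose (0.50 and 0.33, adjusted p = 0.00368 and 0.0233), and CHAF1B, a subunit of the CAF-1 histone chaperone, fell (-0.41, adjusted p = 0.0372).

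Of 18 tested DNA methylation genes outside the 39, 2 were higher and 6 lower with siLRWD1-5, and 2 were higher with siLRWD1-6. A fit without that scrambled library gave 5 higher and 9 lower with siLRWD1-5, and 5 higher and 1 lower with siLRWD1-6. TDG, the glycosylase that removes oxidised methylcytosine, fell with siLRWD1-5 (-0.53, adjusted p = 0.000125). D2HGDH, which clears D-2-hydroxyglutarate, an inhibitor of TET enzymes, rose (0.38, adjusted p = 0.0127). MBD6 rose with both siRNAs, at 0.48 with siLRWD1-5 (adjusted p = 0.000159) and 0.56 with siLRWD1-6 (adjusted p = 0.000186), and MBD5 was lower with siLRWD1-5 but higher with siLRWD1-6, at -0.34 with siLRWD1-5 (adjusted p = 0.00986) and 0.45 with siLRWD1-6 (adjusted p = 0.00418). Of 20 genes of deacetylase complexes, 3 were higher and 4 lower with siLRWD1-5, and 1 was lower with siLRWD1-6. Without that library the counts were 4 higher and 5 lower with siLRWD1-5, and 2 lower with siLRWD1-6. HDAC3, another class I deacetylase, had 62.2, 63.1 and 57.9 CPM with siLRWD1-5, 88.8, 91.5 and 87.9 CPM with siLRWD1-6, against 102, 92.9 and 93.98 CPM with scrambled siRNA (log2 fold change -0.66 ± 0.06, adjusted p = 1.62e-05 for siLRWD1-5). The NuRD remodeller genes CHD3 and CHD4 rose and fell with siLRWD1-5 (0.41 and -0.23, adjusted p = 0.000426 and 0.00729). These shares, 36.7%, 38.5%, 44.4% and 35% of the tested genes of the 4 lists with siLRWD1-5, compare with 38.8% of all genes. With siLRWD1-6 they were 6.67%, 15.4%, 11.1% and 5%, beside 16.6% of all genes. The heterochromatin shares, 38.5% and 15.4%, count LRWD1 itself, the target of both siRNAs. Between siLRWD1-6 and siLRWD1-5, 8 higher and 3 lower Polycomb genes were called, 10 and 3 heterochromatin genes, 8 and 1 DNA methylation genes, and 5 and 6 deacetylase complex genes. Those are 36.7%, 50%, 50% and 55% of the lists, beside 43.4% of all genes. MPHOSPH8 and D2HGDH were chosen for naming after their values were seen.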

How the data were processed

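Per the submitters' processing notes, reads were handled with bcl2fastq 1.8.4, TopHat2 2.0.10 and HTSeq 0.5.4p3 on hg19. The authors deposited whole-number read counts per gene symbol for the 9 libraries, prepared with a TruSeq RNA v2 kit per the labels. Neither the annotation nor the counting mode is given in the sources used here. Reads from overlapping genes and from pseudogenes could therefore be misassigned, and the strand of a read was not used to separate antisense genes as far as the sources state.

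The counts were tested with edgeR 4.0.16 (R 4.3.3): filterByExpr kept 13648 of 23368 symbols, which held at least 99.92% of each library's counts, with TMM scaling, robust quasi-likelihood fits over all 9 libraries without any term but the group, and Benjamini-Hochberg adjustment over all 13648 genes. The threshold was an adjusted p of 0.05, and standard errors were derived from the test statistic. CPM values are TMM-scaled. The procedure was also run on simulated counts. Those had no outlying control and no link between same-numbered libraries, so that run does not cover scrambled replicate 2 or the pairing. With 3 libraries a group, p-values rest on the spread between experiments with a single cell line. That spread was estimated over all groups together, included scrambled replicate 2 and kept any difference between replicate numbers.

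Alternatives were RLE scaling, no scaling, no count filter, a filter at 1 CPM in 3 libraries, limma-voom (limma 3.58.1), DESeq2 1.42.0, the replicate number as a block, fits on just the groups of a comparison, and fits without each library or without replicate number 2. All 39 genes could be named, with those past the threshold given in full; of each other list, up to 4 genes past the threshold with the smallest p were named per comparison. The members and all lists were chosen with earlier results of these data known. Lengths came from GENCODE v29, and a length of all exons, added after seeing the data, was the alternative. Promoters came from RefSeq (GRCh38.p14). Some genes of the other lists are not reported here.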

Additional observations from a re-analysis of the deposited data

How the results depend on the processing

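Over the 18 alternatives, no called gene of the 39 changed sign. Of the calls, 9 of 13 (siLRWD1-5 against scrambled), 0 of 2 (siLRWD1-6 against scrambled) and 10 of 12 (siLRWD1-6 against siLRWD1-5) held in every one. With siLRWD1-5, leaving out 1 library at a time gave 3 to 7 higher genes (5 with all) and 7 to 15 lower genes (8 with all); the 3 came without scrambled replicate 3 and the 7 and 15 without scrambled replicate 2. With siLRWD1-6, leaving out 1 library gave 0 to 7 higher and 0 to 8 lower genes (1 and 1 with all). The 7 and 8 came without scrambled replicate 2, and 0 higher genes came without any one of the other 8 libraries. For siLRWD1-6, RLE scaling, the filter at 1 CPM, DESeq2 and the replicate block gave 2 higher genes, no count filter gave 0, no scaling gave 2 lower genes, and fitting only the groups compared gave 0 higher and 0 lower. Between the siRNAs, leaving out 1 library gave 6 to 13 higher and 4 to 9 lower genes (8 and 4 with all). No scaling gave 8 lower genes, and 35.9% of the 39 were called against 44.6% of all genes. Fitting only these 2 groups gave 13 higher and 11 lower, 61.5% of the 39 against 55.4% of all genes. Without scrambled replicate 2 the shares were 56.4% and 54.4%, where all libraries gave 30.8% and 43.4%. Using only libraries 1 and 3 gave 7 higher and 14 lower genes with siLRWD1-5, 53.8% of the 39 against 47% of all genes. With siLRWD1-6 it gave 5 higher and 7 lower, 30.8% against 26%. Between the siRNAs it gave 11 higher and 8 lower, 48.7% against 48.6%. The causes were not tested. Over all genes, the count of calls ran from 4189 to 6790 with siLRWD1-5 (5292 in the reported fit), from 1248 to 3953 with siLRWD1-6 (2265) and from 4685 to 7551 between the siRNAs (5919). With the replicate number as a block, 7 of the 39 genes were higher and 9 lower with siLRWD1-5. With siLRWD1-6 the counts were 2 and 1, and between the siRNAs 9 and 6. Those are 41%, 7.69% and 38.5% of the 39, against 43.4%, 20.6% and 47.6% of all genes. Same-numbered libraries correlated in their deviations from the group means at 0.0476 to 0.371, above 0.1 in 7 of 9 pairs. Libraries of unlike number correlated at -0.328 to 0.138, above 0.1 in 2 of 18 pairs. By this measure 8 of 9 libraries correlated best with their own number in both other groups. These values hint at a pairing by number, which the reported fit left out and the block fit included. The sources do not state whether the numbers mark shared experiments.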
